A study of Mus musculus with 4 samples.

Results

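The genes described here are 36 mouse germline genes, a class known for CpG-rich promoters that are methylated in somatic cells, measured in embryonic interneurons with and without the DNA methyltransferase gene *Dnmt1*. The 36 symbols were picked by name from general knowledge of this gene class, without a filter on expression, and all 36 had a row among the 55573 gene identifiers of the count tables, of which 21980 were protein-coding. RNA-seq was performed on tdTomato-positive, DAPI-negative cells sorted by FACS at embryonic day E16, counting the day of insemination as the first day. There were 2 libraries from *Dnmt1* wild-type (WT) cells and 2 from *Dnmt1* knockout (KO) cells. Both genotypes carried Hmx3-Cre and the tdTomato reporter, so that Cre acted, and the reporter was switched on, in cells of the *Hmx3* lineage, which give rise to interneurons of the preoptic area (POA). In KO embryos the same Cre removed loxP-flanked exons of *Dnmt1*, whereas WT embryos kept an intact gene. Tissue came from pools of 12 WT and 6 KO embryos, and the region is named basal telencephalon in the labels and POA in the study. The libraries of one genotype are called biological replicates in the labels and technical duplicates of pooled samples in the study's methods, so that the p-values below measure only the spread between these libraries, which may be technical. No sample represents germ cells.

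Germline genes encode proteins for meiosis, for the piRNA pathway and for egg and sperm formation, and in somatic cells many of them are kept off by methylation of CpG-rich promoters. DNMT1 copies methylation marks onto the new DNA strand after replication, and its loss in dividing cells dilutes promoter methylation. A second layer of repression at such promoters is provided by E2F6 and by the MGA-MAX partners of a variant Polycomb complex, which bind E2F and E-box sequences, and by the histone methyltransferases EHMT1, EHMT2 and SETDB1. Whether deletion of *Dnmt1* in POA interneurons was accompanied by RNA from these genes is the question of the comparison below.

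The WT libraries held 8951532 and 9995968 gene counts and the KO libraries 8075102 and 8813520, and a gene with no count in a library could still have a level of up to 0.294 to 0.372 CPM (counts scaled to library size, here with TMM factors), the level of 3 counts. *Dnmt1* itself (chr9:20907209-20959888, minus strand, GRCm38) had WT counts of 3103 and 4557 and KO counts of 2383 and 2552, or 416 ± 43.4 and 282 ± 1.59 CPM (SD, n = 2 each). Its log2 fold change of KO over WT was -0.56 (SE 0.14, 95% confidence interval -0.88 to -0.23) and missed the threshold of 0.05 (edgeR adjusted p = 0.0511), and a gene-level count does not resolve the deleted exons. The 11 markers of the sorted GABAergic cells were detected in every library, but their summed level was 3941 and 3775 CPM in WT and 2837 and 2944 CPM in KO. None of the 11 was called by edgeR, but 10 of the 11 estimates were negative (52.4% over all tested genes), with a median of -0.29 (-0.03 over all), and 4 had an unadjusted p under 0.05 (22.7% over all). Fitted without a filter on low counts, 2 of the 11 were called lower (1.91% over all genes in that fit). With replicate number as a block, *Dcx* was called lower (edgeR adjusted p = 0.0325), as were 619 of all 16832 tested genes. *Gad1*, *Gad2* and *Slc32a1*, which make and load GABA, had log2 fold changes of -0.29, -0.32 and -0.36. The sum was led by the general neuronal gene *Tubb3* (1648 ± 322 and 1189 ± 21.8 CPM). Next came *Dcx*, also a general neuronal gene (766 ± 347 and 464 ± 31.3 CPM), and *Dlx1* (670 ± 46.9 and 580 ± 33.2 CPM). *Hmx3* had 84.3 ± 8.11 and 82.8 ± 15.5 CPM. Markers of other cell types stood apart between the genotypes, to be read against the 7.33% of all tested genes called higher in KO and the 0.57% called lower. All 9 astrocyte markers were called higher in KO (241 and 231 CPM summed in WT, 3802 and 3601 in KO, with *Gfap* at 0 in both WT libraries), as were 7 of 8 oligodendrocyte markers (128 and 152 against 609 and 584 CPM, *Opalin* at 0 in both WT libraries), all 7 mural cell markers (62.7 and 71.5 against 417 and 422 CPM, *Acta2* at 0 in both WT libraries) and 1 of 6 tested microglia markers (*Csf1r*; 26.6 and 30.4 against 51.5 and 58.4 CPM for the 7 listed). Choroid plexus markers had the opposite order (54.7 and 72.2 against 10.1 and 12.2 CPM), with 1 of 5 tested, *Ttr*, called lower. *Ttr* alone made up 40.8 and 55.3 CPM of the WT sums, and 2 of the 5 estimates were positive. *Clic6*, whose WT counts were 5 and 10 and KO counts 2 and 1, was detected in both WT libraries only. Among 12 ependymal and motile cilia markers 1 of 9 tested, *Tekt4*, was called higher, at summed levels of 40.1 and 45.4 CPM in WT and 34.7 and 41.1 in KO. The first WT library also had 8.66% of its counts on mitochondrial rRNA genes, against 1.51 to 2.32% in the other three. In bulk libraries, fewer cells of a type and less RNA per cell cannot be told apart.

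To find out how many of the germline genes gave RNA at all, genes with over 3 counts were called detected in a library. Of the 36 genes, 11 and 13 were detected in the WT libraries and 11 and 12 in the KO libraries, which is 30.6% and 36.1% in WT and 30.6% and 33.3% in KO. The ranges of the genotypes overlapped at this threshold, but with a single count as the threshold they did not, at 17 and 15 genes in WT (47.2% and 41.7%) and 21 and 20 in KO (58.3% and 55.6%), where protein-coding genes gave 71.1% and 68.2% in WT and 70.8% and 71.8% in KO. With over 3 counts, protein-coding genes as a whole were detected at 63.8% and 64.5% in WT and 65.6% and 66.3% in KO. No read was counted in any library for 13 germline genes, or 36.1% of the list, against 23.4% of all protein-coding genes. Another 6 never exceeded 3 counts, so that 19 genes were detected nowhere, 17 were detected in at least 1 library, and 7 in all 4. A single gene, *Syce1*, was detected in both KO libraries and in neither WT library, which is 2.78% of the list where 1.33% of all protein-coding genes behaved this way. With 1 count as the threshold there were 3 such genes (*Syce1*, *Fkbp6* and *Figla*), or 8.33% against 1.27%. Likewise a single gene, *Tex14*, was detected in both WT libraries and in neither KO library, where 0.414% of all protein-coding genes did so. All 36 genes together had WT counts of 663 and 692 and KO counts of 635 and 667, or 82.3 and 67.8 CPM against 75.5 and 73.5 CPM. In CPM both KO values thus lay between the WT values. Without *Sycp2* the sums were 77.2 and 65.1 CPM in WT and 62.3 and 62.9 CPM in KO, with both KO values below both WT values. *Tdrkh* alone made up 35.5 and 26.2 CPM in WT and 28.4 and 25.8 CPM in KO. With both genes left out, the sums were 41.7 and 38.9 CPM against 33.9 and 37.1 CPM.

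**Figure D1:**
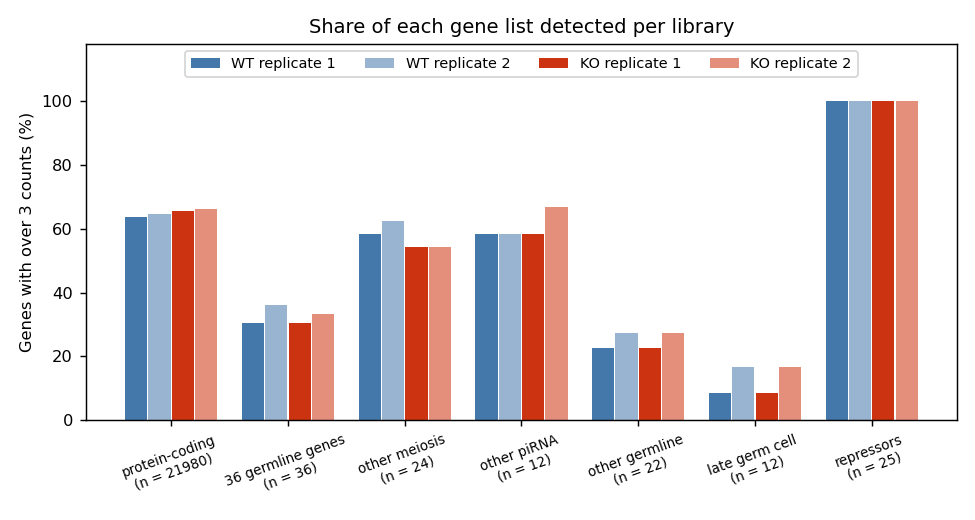
Percent of genes with over 3 counts (y axis) in each of the 4 libraries, for the germline genes, the related gene lists and all protein-coding genes. The 36 germline genes sit between 30.6% and 36.1% in every library, below the 63.8 to 66.3% of all protein-coding genes.

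Expression between the genotypes could be tested for 8 of the 36 genes, which were among the 16832 that passed the filter on low counts. Of these 8, 1 was called higher in KO (*Sycp2*) by edgeR's quasi-likelihood test at an adjusted p under 0.05, where 7.33% of all tested genes were called higher. None of the 8 was called lower, where 0.57% of all tested genes were, and 2 of the 8 (*Sycp2* and *Stag3*) had an unadjusted p under 0.05, as did 22.7% of all tested genes. DESeq2 also called 1 higher and 0 lower, where it called 7.4% and 1.47% of all tested genes, with 1 at an unadjusted p under 0.05 (18.9% of all). Their median log2 fold change was -0.32, against -0.03 over all tested genes, and 6 of the 8 estimates were negative, as were 52.4% over all tested genes. Without the first WT library the median was -0.01 (0.03 over all), with 4 estimates negative and 4 positive. Without a filter, 23 germline genes had a median of 0.39 (0.04 over all genes in that fit). Of these 23 estimates 13 were positive, as were 52.8% over all. Both KO libraries lay above both WT libraries in CPM for *Sycp2* and *Rec8*, where 28.3% of all tested genes did, and below both for *Stag3*, *Dmc1* and *Ddx4*, where 25.2% did. The 8 genes passed a filter on their own level and do not stand for the list.

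**Figure D2:**
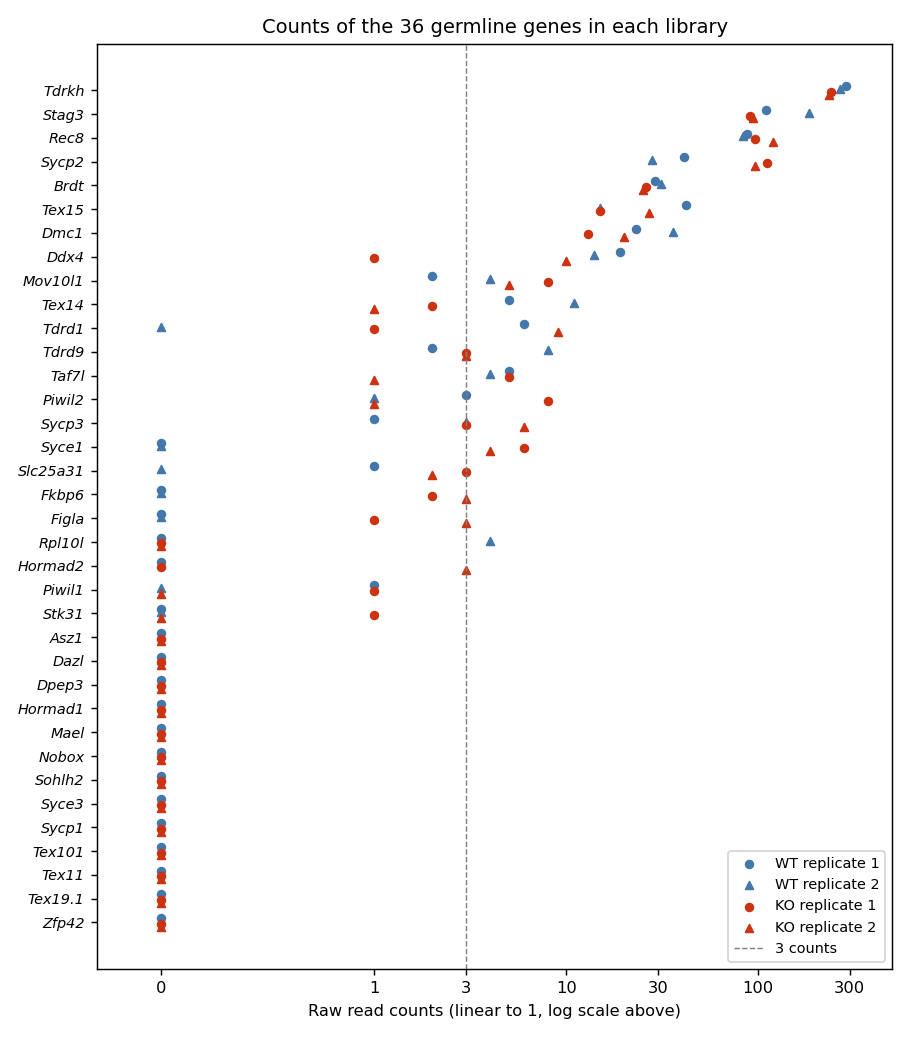
Raw counts (x axis, linear to 1 count and logarithmic above) of the 36 germline genes in each library, with genotypes marked by colour, replicates by symbol and 3 counts by a dashed line. *Tdrkh* has the highest counts, at 234 to 286 in all 4 libraries, and *Sycp2* has KO counts of 111 and 96 above WT counts of 41 and 28.

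The 5 genes of the synaptonemal complex, the protein zipper that holds paired chromosomes together in meiosis, contained the only called gene of the list. *Sycp2* (chr2:178345293-178407685, minus strand) encodes a protein of the lateral element, the rail along each chromosome axis. Its WT counts were 41 and 28 and its KO counts 111 and 96, or 5.09 and 2.74 CPM against 13.2 and 10.6 CPM. Both KO libraries were thus above both WT libraries, with means of 3.92 ± 1.66 and 11.9 ± 1.86 CPM (SD, n = 2 each). The log2 fold change was 1.62 (SE 0.37, 95% confidence interval 0.77 to 2.46), a fold of 3.06, with an edgeR adjusted p of 0.0345. The call was lost when the first KO library was left out (1.46, edgeR adjusted p = 0.0834), and the estimate ranged from 1.21 to 2.10 over the 4 fits that each left out 1 library. The glial and mural marker lists given above were higher in the same 2 libraries, and their part in the *Sycp2* result was not tested. Scaled by length, the *Sycp2* level was low in either genotype, at 0.656 CPM per kb of exon in WT and 1.99 in KO, where the median tested protein-coding gene had 6.22 and 6.31.

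The promoter of *Sycp2* is shown here because the gene was called, beside those of *Sycp1* and *Mael*, which had no counts in any library, and of *Stag3*, which had counts in every library. Each is the 250 bases before the transcription start, 5′ to 3′ on the gene's strand, from RefSeq on GRCm38.p6. Capitals mark an E-box, CACGTG, or an E2F sequence, TCCCGC or its reverse complement, and the rest is in lower case. The windows lie at chr2:178407659-178407908 for *Sycp2* (minus strand), chr3:102936101-102936350 for *Sycp1* (minus strand), chr1:166238745-166238994 for *Mael* (minus strand) and chr5:138280259-138280508 for *Stag3* (plus strand). The RefSeq start of *Stag3* lies 269 bases after the 5′ end in GENCODE, so that its window falls inside the gene as annotated there.
Sycp2: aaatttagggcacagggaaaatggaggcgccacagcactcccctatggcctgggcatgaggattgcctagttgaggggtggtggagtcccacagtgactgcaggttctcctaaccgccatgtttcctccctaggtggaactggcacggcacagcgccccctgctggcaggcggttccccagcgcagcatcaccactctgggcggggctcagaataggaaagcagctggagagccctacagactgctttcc
Sycp1: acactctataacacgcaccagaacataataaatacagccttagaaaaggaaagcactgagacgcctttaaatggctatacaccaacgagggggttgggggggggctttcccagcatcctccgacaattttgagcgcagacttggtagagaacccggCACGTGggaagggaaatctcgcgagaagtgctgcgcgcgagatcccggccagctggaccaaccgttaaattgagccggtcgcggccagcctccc
Mael: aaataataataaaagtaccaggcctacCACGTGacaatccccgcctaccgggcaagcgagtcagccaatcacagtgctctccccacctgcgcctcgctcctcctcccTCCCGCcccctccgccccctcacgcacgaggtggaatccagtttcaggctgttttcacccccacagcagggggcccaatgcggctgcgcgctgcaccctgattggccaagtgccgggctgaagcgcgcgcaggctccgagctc
Stag3: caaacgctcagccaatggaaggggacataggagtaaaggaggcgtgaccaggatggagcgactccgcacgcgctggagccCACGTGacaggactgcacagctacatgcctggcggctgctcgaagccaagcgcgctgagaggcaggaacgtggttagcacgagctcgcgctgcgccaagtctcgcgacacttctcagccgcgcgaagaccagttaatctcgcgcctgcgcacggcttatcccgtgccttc
The *Sycp2* window held 7 CpG dinucleotides and neither motif. In the other windows, 17 CpG were found for *Sycp1*, 18 for *Mael* and 26 for *Stag3*, each with 1 E-box, and the *Mael* window also had an E2F sequence. The E2F sequence of *Sycp1* lies after the start and that of *Stag3* spans it, so that neither is shown whole. The windows of *Sycp1* and *Mael* do not stand for the silent genes, since 8 of the 12 genes without counts that had a promoter sequence held neither motif over 300 bases, and *Syce3*, with no counts, had 5 CpG there where *Sycp2* had 10.

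The other 4 genes of the complex stayed at or near 0. *Syce1* (chr7:140777229-140787852, minus strand), a protein of the central element between the rails, had WT counts of 0 and 0 and KO counts of 6 and 4. Its mean KO level was 1.73 times that of WT if each WT library is set at 3 counts and the KO counts are taken as exact. With so few counts it did not enter the test, and without a filter its edgeR adjusted p was 0.296. *Sycp3* (counts 1 and 3 in WT, 3 and 6 in KO), the partner of SYCP2 in the lateral element, shares 52.2% of its exon bases with *Chpt1* on the opposite strand, so that its few counts cannot be assigned with certainty. *Sycp1*, whose protein bridges the rails as the transverse filament, and *Syce3*, of the central element, were at 0 in all 4 libraries. The lateral element gene called in KO was therefore not accompanied by detectable RNA of the transverse filament gene at this depth.

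The 7 genes of the meiotic chromosome axis, cohesin and recombination had 4 tested members, none of which was called by edgeR. *Stag3* (chr5:138280240-138312393, plus strand), a cohesin subunit of meiotic cells, had WT counts of 110 and 183 and KO counts of 90 and 94, or 15.8 ± 3.02 and 10.5 ± 0.246 CPM. Both KO values were below both WT values, and the log2 fold change of -0.59 (SE 0.25, 95% confidence interval -1.17 to -0.00) did not pass (edgeR adjusted p = 0.218). Without the first WT library it did (-0.78, edgeR adjusted p = 0.0184). *Rec8* (chr14:55618037-55625395, plus strand), the meiotic cohesin subunit that replaces RAD21, had WT counts of 87 and 83 and KO counts of 96 and 120. Its levels of 9.47 ± 1.89 and 12.3 ± 1.27 CPM did not overlap but differed by a log2 fold change of only 0.38 (SE 0.28, interval -0.25 to 1.02, edgeR adjusted p = 0.449). The cohesin genes thus had estimates of opposite sign, neither of which passed.

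*Dmc1* (chr15:79561497-79605109, minus strand), the strand exchange recombinase of meiosis, had WT counts of 23 and 36 and KO counts of 13 and 20, for a log2 fold change of -0.76 (SE 0.48, interval -1.87 to 0.34, edgeR adjusted p = 0.385). *Tex15* (chr8:33516738-33585582, plus strand), which is needed for repair of meiotic breaks, had WT counts of 42 and 15 and KO counts of 15 and 27. The genotypes overlapped, and 1 library decided the direction, since its log2 fold change of -0.46 (SE 0.65, edgeR adjusted p = 0.72) became 0.69 without the first WT library. *Hormad2*, a HORMA domain protein of the unpaired axis, had 3 counts in the second KO library and 0 elsewhere. Its relative *Hormad1* and *Tex11*, a gene for crossover formation on the X chromosome, were at 0 in every library.

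The largest group held 12 genes of the piRNA pathway and the germ granule, which silence transposons in germ cells, and 0 of its 2 tested genes were called. *Ddx4* (chr13:112598333-112652475, minus strand), the mouse Vasa helicase and a standard germ cell marker, had WT counts of 19 and 14 and KO counts of 1 and 10, or 1.87 ± 0.698 and 0.61 ± 0.695 CPM. The KO libraries were the lower ones, and the log2 fold change of -1.55 (SE 0.85, interval -3.52 to 0.41) missed the threshold (edgeR adjusted p = 0.322). It was -0.73 without the first KO library and -3.80 without the second. *Tdrkh* (chr3:94413273-94434668, plus strand), a mitochondrial Tudor protein that takes part in piRNA trimming, was the most abundant gene of the list. It had WT counts of 286 and 267 and KO counts of 239 and 234, at 5.02 and 4.41 CPM per kb of exon, and its difference did not pass (log2 fold change -0.18, SE 0.20, edgeR adjusted p = 0.637), with an estimate of 0.04 without the first WT library. *Oaz3* on the opposite strand covers 36.7% of the *Tdrkh* exon bases, and reads of the pair may have been mixed.

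The remaining piRNA genes had few counts. *Piwil2*, a PIWI protein that binds piRNAs, had WT counts of 3 and 1 and KO counts of 8 and 1, and *Mov10l1*, the helicase that starts piRNA processing, had 2 and 4 against 8 and 5. The Tudor domain genes *Tdrd1* (6 and 0 in WT, 1 and 9 in KO) and *Tdrd9* (2 and 8 in WT, 3 and 3 in KO) overlapped between genotypes. *Piwil1*, *Stk31* and *Fkbp6* never exceeded 3 counts, of which *Fkbp6*, a co-chaperone of piRNA loading, had 0 and 0 in WT and 2 and 3 in KO. *Mael*, *Asz1* and *Tex19.1* were at 0 throughout. Fitted without a filter, 6 of the 9 piRNA genes with a count had a positive estimate and 0 were called by edgeR, with 0 at an unadjusted p under 0.05 and a lowest adjusted p of 0.309. Over all genes in that fit 52.8% were positive, 5.97% were called higher, 1.91% lower and 16.5% had an unadjusted p under 0.05.

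Among 6 genes for transcription and chromatin, *Brdt* (chr5:107331159-107387058, plus strand), the bromodomain protein of the testis, was the tested one. It had WT counts of 29 and 31 and KO counts of 26 and 25, close in all 4 libraries, for a log2 fold change of -0.18 (SE 0.42, interval -1.16 to 0.80, edgeR adjusted p = 0.844). *Taf7l*, a germ cell relative of the general transcription factor subunit TAF7, had WT counts of 5 and 4 and KO counts of 5 and 1. *Figla*, an oocyte transcription factor, had 0 and 0 against 1 and 3. The oocyte factor *Nobox*, the germ cell factor *Sohlh2* and the pluripotency gene *Zfp42* (Rex1) were at 0 in all 4 libraries.

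No gene was tested among the 6 other germ cell proteins. *Tex14* (chr11:87405065-87555823, plus strand), which keeps the bridges between germ cells open, had WT counts of 5 and 11 and KO counts of 2 and 1. It did not enter the test, and without a filter its edgeR adjusted p was 0.497. *Rpl10l*, a testis-expressed copy of the ribosomal gene *Rpl10* whose reads may be shared with that gene, had 4 counts in the second WT library and 0 elsewhere. *Slc25a31*, the ADP/ATP carrier of sperm, had WT counts of 1 and 0 and KO counts of 3 and 2. *Dazl*, an RNA-binding protein of germ cells, *Tex101*, a surface protein of sperm, and *Dpep3*, a testis dipeptidase, were at 0.

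**Figure D3:**
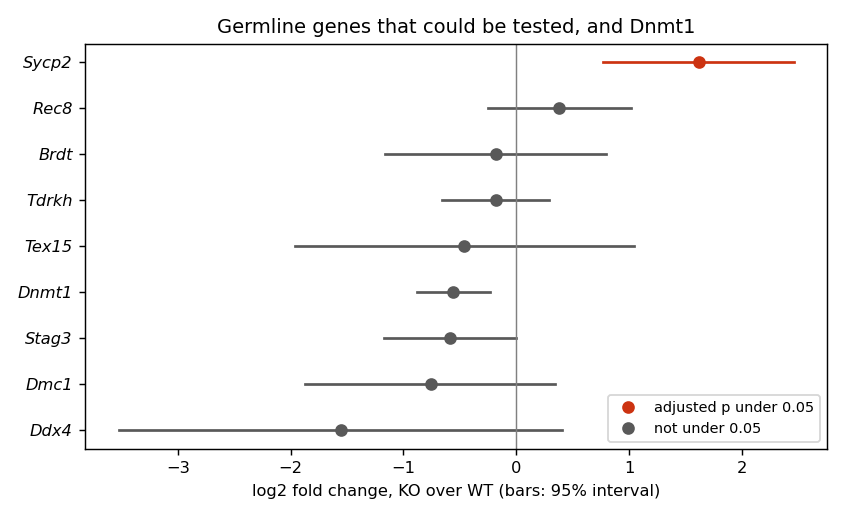
Log2 fold change of KO over WT (x axis) with 95% confidence intervals for the 8 tested germline genes and *Dnmt1*, from edgeR, with the adjusted p under 0.05 marked by colour. The interval of *Sycp2* runs from 0.77 to 2.46, that of *Stag3* ends at -0.00, and those of the other 6 germline genes include 0.

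A low but broad rise spread over many genes would be missed by tests of single genes, so the counts of the 28 untested genes were added up. They came to 26 and 35 in WT and 44 and 41 in KO, or 3.23 and 3.43 CPM against 5.23 and 4.52 CPM, so that the KO sums were above the WT sums by few reads. Of these genes 10 had a higher summed CPM in KO, 5 had a lower one and 13 were at 0. The average of 0.929 and 1.25 counts per gene in WT and 1.57 and 1.46 in KO compared with 0.935, 1.07, 1.08 and 1.26 in the same order of libraries for the 8533 protein-coding genes that were not tested. The summed CPM of those 8533 genes was 990 and 896 in WT and 1099 and 1185 in KO, and their split by direction was not counted. The difference between the sums of the 28 germline genes was not tested.

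Promoter sequence was compared with the level of RNA. RefSeq promoters of 300 bases, from 250 before to 50 after the start, were matched for 33 of the 36 genes (not for *Tex11*, *Tex15* and *Piwil2*). For 3 of them the RefSeq start lay far from the 5′ end in GENCODE, by 33722 bases for *Piwil1*, 4625 for *Tex101* and 1020 for *Figla*, and without these the median CpG number was 18 and an E-box stood in 14 of 30. The 33 promoters held a median of 18 CpG (range 5 to 38), against 14 over 16520 protein-coding promoters, whose quartiles were 4 and 25. An E-box occurred in 15 of the 33, or 45.5%, against 8.09% of all promoters of this length, and an E2F sequence on either strand in 12, or 36.4%, against 26.7%. Both motifs stood in 7 promoters, those of *Ddx4*, *Hormad1*, *Mael*, *Slc25a31*, *Stag3*, *Sycp1* and *Sycp3*, or 21.2% against 2.83%, and these genes ranged from no counts in any library to some of the higher counts of the list. A motif match is a description of the sequence and says nothing of binding in these cells. The median CpG number was 23 in the 7 tested genes, 17.5 in the 14 with few counts and 17 in the 12 without any. The *Sycp2* promoter had 10 CpG over the 300 bases, the fewest of the tested genes, at an observed to expected ratio of 0.363 where the median of the list was 0.686.

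**Figure D4:**
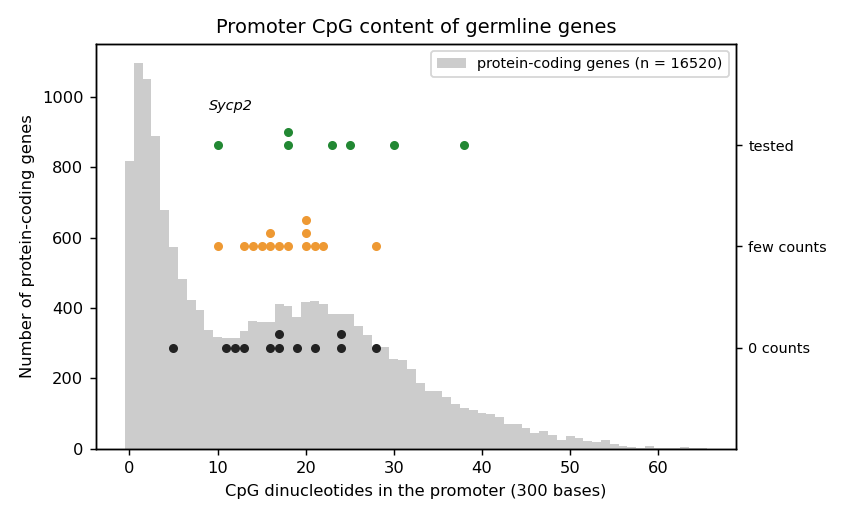
Number of CpG dinucleotides in the 300-base RefSeq promoter (x axis) of 33 germline genes (points, in rows by the level of their RNA) over the histogram of all protein-coding promoters (left y axis, number of genes). Tested genes (median 23), genes with few counts (median 17.5) and genes without counts (median 17) overlap, and *Sycp2* has 10.

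None of the 17 tested genes on 3 lists of further germline genes was called, where 7.33% of all tested genes were called higher and 0.57% lower. Without a filter on low counts 2 of 39 were called, both lower in KO, where 5.97% of all genes in that fit were called higher and 1.91% lower. The meiotic helicase gene *Hfm1* had WT counts of 215 and 123 and KO counts of 66 and 91 (log2 fold change -1.10, edgeR adjusted p = 0.00313), and *4930447C04Rik* (*Six6os1*, a synaptonemal complex gene) had 67 and 13 against 9 and 12 (-1.95, edgeR adjusted p = 0.00548). Both were highest in the first WT library. With the filter and without that library, *Hfm1* and *4930447C04Rik* had log2 fold changes of -0.44 and -0.10. Without the second WT library they had -1.59 and -2.79. Of 24 further meiosis genes, 8 were tested, 0 were called by edgeR and 2 had an unadjusted p under 0.05 (22.7% over all tested genes), with a lowest adjusted p of 0.136. Between 13 and 15 of them were detected per library. *Spo11*, which makes the meiotic double-strand breaks, had WT counts of 6 and 12 and KO counts of 1 and 1, and *Meioc*, a regulator of the meiotic programme, had 8 and 6 against 1 and 0. They are given because they were detected in both WT libraries and in neither KO library, as were 8.33% of this list and 0.414% of all protein-coding genes. Among 12 further piRNA genes 5 were tested and 0 called by edgeR (0 with an unadjusted p under 0.05, lowest adjusted p 0.609). Of 22 other germline genes, 4 were tested and 0 called by edgeR (lowest adjusted p 0.424), and 12 were at 0 in all libraries, among them *Rhox5*, *Rhox13*, *Magea4*, *Dppa3* and *Nanog*. Genes of late germ cells were at 0 in 8 of 12 cases, and the 1 tested, the acrosin gene *Acr*, had WT counts of 53 and 76 and KO counts of 56 and 77 (log2 fold change 0.11, edgeR adjusted p = 0.871).

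The repressors that act at germline promoters were expressed throughout, with all 25 genes of the list, *Dnmt1* included, detected in every library. One of the 25, *Rnf2*, the ubiquitin ligase RING1B of the Polycomb complexes, was called lower in KO, where 0.57% of all tested genes were. Its WT counts were 989 and 1155 and its KO counts 616 and 616, or 123 and 113 CPM against 73.2 and 67.8 CPM. Both KO libraries were below both WT libraries (log2 fold change -0.74, SE 0.15, interval -1.08 to -0.40, edgeR adjusted p = 0.0177). The call was lost without the first KO library (-0.78, edgeR adjusted p = 0.141) and without the second (-0.68, edgeR adjusted p = 0.293). None was called higher, 20 of the 25 estimates were negative, with a median of -0.17, and 8 had an unadjusted p under 0.05. Over all tested genes 52.4% were negative, the median was -0.03 and 22.7% had an unadjusted p under 0.05. The *de novo* methyltransferase genes *Dnmt3a* and *Dnmt3b* had log2 fold changes of 0.03 and 0.01 (edgeR adjusted p = 0.933 and 0.989), and *Uhrf1*, the partner that brings DNMT1 to replicated DNA, had 0.19 (0.578). The sequence-specific repressor genes *E2f6* and *Mga* had -0.10 and -0.16 (edgeR adjusted p = 0.78 and 0.66). Lower estimates, not called by edgeR, were those of *Yaf2* (-0.64), *Rybp* (-0.60), *Hdac2* (-0.52) and *Zbtb14* (-0.50). Next came *Cbx3* (-0.49), *Pcgf6* (-0.45), *Max* and *Trim28* (-0.33 each), also not called. With DESeq2, *Hdac2* was called lower (-0.53, DESeq2 adjusted p = 0.0188), as were 1.47% of all tested genes. Reduced *Hdac2* expression in KO cells is also reported in the study. The lower *Rnf2* count was measured in the same 2 libraries as the higher glial and mural marker lists, and their part in it was not tested.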

How the data were processed

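RNA-seq of sorted cells gave 4 libraries, 2 per genotype, grouped by GEO's labels. The deposited values are raw counts per Ensembl gene that the authors made for each library, and the submitters' processing notes name CASAVA 1.8.2, STAR 2.5.2a and featureCounts 1.5.0-p1 with the builds mm10 and GRCm38. The annotation release, the strand setting and the treatment of multi-mapping reads are not given in the sources used here. Of 55573 identifiers, 55480 were matched to GENCODE M21 for symbols and coordinates. Genes passing edgeR's filterByExpr (16832) were tested in all 4 libraries with edgeR 4.0.16 (TMM, quasi-likelihood F-test, Benjamini-Hochberg adjustment over all tested genes, threshold 0.05) in R 4.3.3, and alternatives used DESeq2 1.42.0, other scalings and filters, a replicate block and each library left out. CPM are TMM-scaled. Detection meant over 3 counts, and a count of 0 was taken to allow 3 counts. Intervals are at 95%. The germline genes and all lists were chosen with earlier results of these data known. Every germline gene is accounted for. Of the related and marker lists, genes with an adjusted p under 0.05 or detected in both libraries of only one genotype were to be named, at most 5 per list by absolute log2 fold change, and *Dnmt1* always. Here the called glial and mural markers are given as counts and sums, and other listed genes given with values were chosen after their values were seen. Total counts of 8075102 to 9995968 per library set the precision. Methylation data of the study were not analysed here.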

Additional observations from a re-analysis of the deposited data

How the results depend on the processing

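The results of the 8 tested germline genes were compared over 6 fits with another test, scaling, filter or the replicate block. These gave 47 values, 1 per gene and fit, and all kept their direction and side of the threshold (*Sycp2* 1.61 to 1.74). So did 28 of the 32 values from the 4 fits that each left out 1 library. There *Sycp2* lost its call without the first KO library, *Stag3* gained one without the first WT library, and *Tex15* (range -1.13 to 0.69) and *Tdrkh* (-0.40 to 0.04) reversed without the first WT library. A lone library was then assumed to vary like the others. The 1329 genes called became 2363 without a filter, 883 with at least 10 counts in every library, 2244 with the replicate block and 951 to 4209 with 1 library left out. Germline genes called ranged from 0 to 2 in those fits. The related genes called (1) became 3 with DESeq2, 2 with its size factors, 5 without a filter, 5 with the replicate block (all lower in KO) and 0 to 10 with 1 library left out, 0 without either KO library. *Dnmt1* passed the threshold at -0.57 with DESeq2, -0.57 with its size factors, -0.55 without a filter and -0.56 with the replicate block. It did not pass with library size alone (-0.46, edgeR adjusted p = 0.151) or with at least 10 counts in every library (-0.52, edgeR adjusted p = 0.0739). Its estimate ranged from -0.67 to -0.46 with 1 library left out. Same-numbered libraries share only a number (correlation of their deviations 0.137), and the replicate block changed no call among the germline genes. *Ddx4* could not be tested with at least 10 counts in every library. Counting a gene from 1 count on, 17 and 15 germline genes were detected in WT and 21 and 20 in KO, and from 10 counts on 7 in the first KO library. Genes detected in both KO and no WT library were 3 from 1 count on (8.33%, against 1.27% of protein-coding genes), 0 from 10 counts on and 1 to 2 with 1 library left out. Genes detected in both WT and no KO library were 0 from 1 count on (against 0.359%), 0 from 10 counts on and 1 to 3 with 1 library left out. Scaling by library size alone moved the median log2 fold change of all tested genes from -0.03 to 0.08. At this depth a germline gene below about 0.372 CPM can go uncounted.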
